A study of Homo sapiens with 10 samples.

Results

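Integrins are the receptors through which cells hold on to the extracellular matrix, and each receptor is an alpha chain paired with a beta chain. The alpha chain largely sets the ligand: ITGA6 and ITGA3 pair into laminin receptors, ITGA2 into a collagen receptor, ITGA5 into the classical fibronectin receptor, and ITGAV into receptors for the RGD motif of vitronectin and of latent TGF-beta. ITGB1 is the partner shared by all 5 of these alpha chains, ITGB4 pairs with ITGA6 in the hemidesmosomes of basal epithelium, and ITGB3, ITGB5 and ITGB6 pair with ITGAV. In the prostate, the laminin receptors sit mainly on basal cells, against the basement membrane.

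The RNA of 10 integrin subunits, ITGA2, ITGA3, ITGA5, ITGA6, ITGAV, ITGB1, ITGB3, ITGB4, ITGB5 and ITGB6, was followed over the 6 groups of a series of 10 Affymetrix arrays, 1 array per sample. The subunits were chosen by name, with earlier results of these data known. Each was read through the brightest of the probe sets whose annotation names it. Of these 10 genes, 9 had at least 1 probe set annotated with that gene symbol only (30 probe sets), and all 9 were among the 14313 genes tested. ITGB6 was covered only by 4 probe sets that the annotation shares with LINC02478, so it was described but not tested.

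The groups were LNCaP EOS cells treated with ribavirin (1 array), LNCaP EOS cells (2 arrays) and LNCaP PGK cells (2 arrays), with the same 3 states in DU145 (1, 2 and 2 arrays). LNCaP is an androgen-responsive prostate cancer line from a lymph node metastasis, and DU145 is an androgen-independent line from a brain metastasis. All cells carried a vector with GFP and a puromycin resistance gene. In EOS cells enhancers of OCT4 and SOX2 drive both genes, so that puromycin selects for activity of those enhancers, and in PGK controls the ubiquitous PGK promoter drives them. The labels mention puromycin culture for EOS-transduced cells and do not say whether the PGK controls were kept in it too. They tie each ribavirin array to EOS number 2 and give no dose or time. Whether numbers 1 and 2 were separate cultures is not stated, and the p-values here cover only array-to-array spread, possibly technical.

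Levels are given as log2(intensity + 16) after each array was scaled to a 2% trimmed mean of 500. On this scale 1 unit is close to a doubling of intensity for a bright gene and more than a doubling near the floor of 4. Per array, the median of all probe sets lay between 6.12 and 6.45. The arrays numbered 1 were deposited at a trimmed mean of 500 and those numbered 2 at 96.56 to 126.5, and the 3'/5' signal ratio for ACTB was 1.236 to 1.511 on the arrays numbered 1 and 3.204 to 3.993 on those numbered 2, so scale and ratio both went with number. What the number stands for is not stated. Each EOS and PGK group holds both numbers, and both ribavirin arrays are number 2. The line labels held against luminal prostate markers: 8 of 8 measured ones were above the array median on all LNCaP arrays, against 2 of 8 on all DU145 arrays, with KLK3 at a mean of 14.97 in LNCaP and 5.47 in DU145. The hemidesmosome and basal list had 5 of 7 genes with a probe set, of which 2 or 3 were above the median in LNCaP and 3 or 4 in DU145.

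The main contrast among integrin subunits was between the lines. Averaged over the 3 states, 7 of 9 tested subunits were lower in LNCaP than in DU145 at an adjusted p under 0.05 (limma, Benjamini-Hochberg over all genes), 0 were higher, and all 9 estimates were below 0. Over all genes 24.9% were called lower, 23.5% higher and 48.4% in either direction in this comparison. The subunits and the gene lists below were chosen with earlier results of these data known. Counts set beside such shares are therefore descriptions and not tests. The 9 subunits had a median difference of -1.06 log2 and all genes one of -0.04. For 6 of the 9, every LNCaP array lay below every DU145 array, a pattern that 22% of all genes showed, and 0 of 9 lay wholly above, against 20.4% of all genes. Among the PGK controls alone 6 of 9 were called lower and 0 higher, where 17.9% of all genes were lower, 15.2% higher and 33.1% either. On the deposited scale 0 of 9 were called there, and without DU145 PGK 2 there were 3, with 58 and 2497 of 14313 genes called in all, against 4733. In whole-culture RNA, fewer expressing cells and less RNA per cell cannot be told apart.

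**Figure D1:**
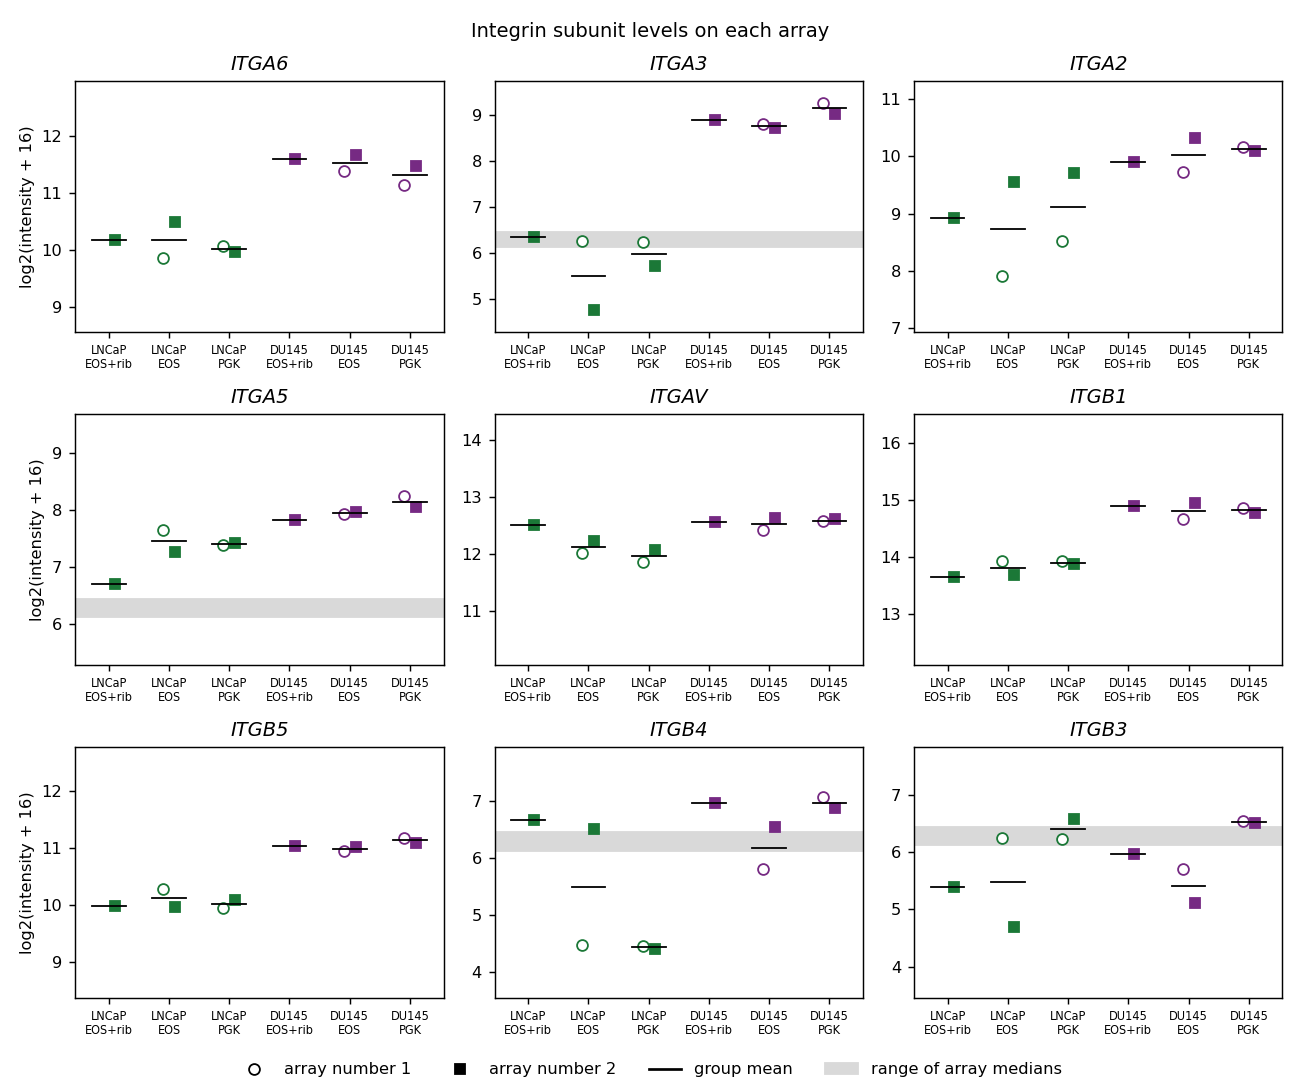
Level of the 9 tested integrin subunits on each of the 10 arrays, as log2(intensity + 16) on axes that differ between panels, with LNCaP in green and DU145 in purple, array number 1 as open circles and number 2 as filled squares. Short lines are group means and the grey band is the range of the 10 array medians, from 6.12 to 6.45. ITGA2, ITGA3, ITGA5, ITGA6, ITGB1 and ITGB5 separate the lines on every array. ITGB3 runs from 4.699 to 6.585, with the lines overlapping. ITGB4 lies at 4.405 to 4.475 on LNCaP PGK 1, PGK 2 and EOS 1, below the band, and at 5.807 to 7.065 on the other arrays.

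ITGB1, the common beta chain, was at 13.66 with ribavirin, 13.94 and 13.69 in EOS and 13.93 and 13.89 in PGK among the LNCaP arrays. On the DU145 arrays it was at 14.90 with ribavirin, 14.68 and 14.96 in EOS and 14.87 and 14.78 in PGK. The lines did not overlap, and the spread within each line was small, with a mean of 13.82 ± 0.14 in LNCaP and 14.84 ± 0.11 in DU145 (SD, 5 arrays of the 3 states each). The difference was -1.06 ± 0.10 log2 (SE, 2.08-fold lower in LNCaP, limma adjusted p = 5.07e-05). In the 5 pairs of arrays matched for state and number it ranged from -1.27 to -0.75.

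All 4 ITGB1 probe sets that passed the filter on dim signals were lower in LNCaP. The 2 next brightest after the main one differed by more, -1.64 and -1.66 log2. These 2 next brightest also moved with array number in both lines. The array numbered 2 was below number 1 by 0.19 to 0.69 log2 in all 4 EOS and PGK groups, whereas the main probe set moved by -0.24 to 0.28. Among the 4 kept probe sets the size of the ITGB1 line difference therefore depends on the probe set, and its direction did not. The ITGB1 probe sets that failed the filter differed by -0.29, 0.04 and 0.28 log2 and exceeded the array median on 0 arrays.

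ITGA6, the laminin-binding alpha chain of hemidesmosomes, was at 10.17 with ribavirin, 9.86 and 10.49 in EOS and 10.07 and 9.97 in PGK in LNCaP. DU145 had 11.60 with ribavirin, 11.38 and 11.66 in EOS and 11.14 and 11.47 in PGK. Every LNCaP array was again below every DU145 array. The difference was -1.36 ± 0.17 log2 (SE, 2.56-fold lower, limma adjusted p = 0.00025), with -1.52 to -1.07 in the 5 matched pairs. Its other probe set gave -1.01 between means of 5 arrays each.

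ITGA3, the alpha chain of another laminin receptor, had the widest range of group means, 3.65 log2. It was at 6.34 with ribavirin, 6.27 and 4.74 in EOS and 6.25 and 5.71 in PGK in LNCaP. In DU145 it was at 8.89 with ribavirin, 8.80 and 8.73 in EOS and 9.27 and 9.03 in PGK. In LNCaP the signal was close to the array median, above it on 3 of 5 arrays, so its fold depends on the background there. The difference was -2.998 ± 0.323 log2 (SE, 7.99-fold lower, limma adjusted p = 0.000111), with -3.99 to -2.54 in the matched pairs. Only 1 probe set measured it.

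ITGB5, an ITGAV partner in a vitronectin receptor, was at 9.98 with ribavirin, 10.29 and 9.97 in EOS and 9.96 and 10.10 in PGK in LNCaP. DU145 had 11.04 with ribavirin, 10.96 and 11.02 in EOS and 11.18 and 11.09 in PGK. The lines were clearly apart, by -1.01 ± 0.13 log2 (SE, 2.01-fold lower, limma adjusted p = 0.000307). All 4 ITGB5 probe sets were lower in LNCaP, by 0.59 to 2.00 log2 between means of 5 arrays each.

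The remaining called subunits differed by less or varied more. ITGA2, the collagen-binding alpha chain, ran from 7.91 to 9.71 in LNCaP and from 9.73 to 10.33 in DU145, and differed by -1.10 ± 0.37 log2 (SE, limma adjusted p = 0.0354). Within LNCaP it was higher on the arrays numbered 2, by 1.64 in EOS and 1.19 in PGK, while in DU145 the same steps were 0.60 and -0.07. The matched line differences were accordingly -1.82 and -1.65 in number 1 and -0.98 to -0.39 in number 2. With a block by array number within each line, which gives the line difference at number 1, it was -1.87 (limma adjusted p = 0.00121). ITGA2 kept its call in 9 of 15 alternatives. It lost it without any 1 of DU145 PGK 1, PGK 2, EOS 1 and EOS 2 or LNCaP PGK 1 (adjusted p = 0.0759, 0.0712, 0.0504, 0.0893 and 0.0639).

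ITGA5, the fibronectin receptor chain, ran from 6.71 to 7.65 in LNCaP and from 7.82 to 8.25 in DU145, without overlap. The difference was -0.78 ± 0.19 log2 (SE, limma adjusted p = 0.00861). With the block by array number within each line, at number 1, it was -0.72 (limma adjusted p = 0.126). ITGAV, the alpha chain of the vitronectin receptors, was at 11.86 to 12.50 in LNCaP and 12.42 to 12.63 in DU145. The ribavirin array in LNCaP, at 12.50, reached into the DU145 range. The difference was -0.36 ± 0.11 log2 (SE, limma adjusted p = 0.0279), and with the block, at number 1, -0.42 (adjusted p = 0.0569). Among the PGK controls alone it was -0.62 ± 0.17 (adjusted p = 0.0229), a call lost without DU145 PGK 1, DU145 PGK 2 or LNCaP PGK 1 (adjusted p = 0.108, 0.125 and 0.1). Over the 3 states ITGAV kept its call in 8 of 15 alternatives, and lost it without any 1 of DU145 PGK 1, PGK 2 and EOS 2 or LNCaP PGK 1 and EOS 1 (adjusted p = 0.0682, 0.074, 0.0648, 0.0524 and 0.0548).

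**Figure D2:**
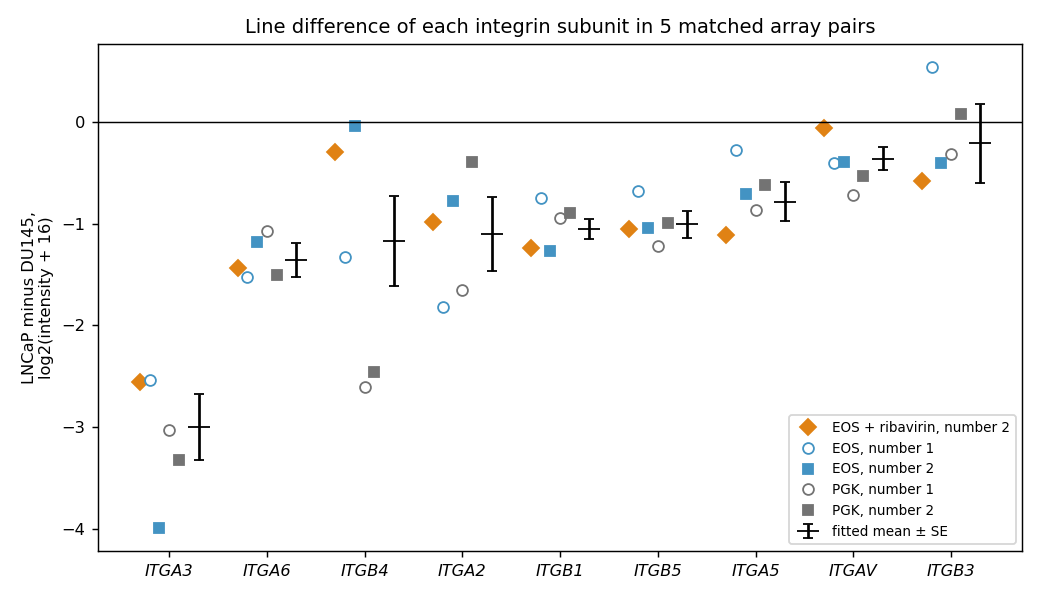
LNCaP minus DU145 for each tested integrin subunit on the log2(intensity + 16) scale, in the 5 pairs of arrays of the same state and number (coloured points) and as the fitted mean of the 3 states with its standard error (black). All 5 pairs lie below 0 for 8 of the subunits, with ITGB3 on both sides of 0. The ITGB4 pairs spread from -2.61 to -0.04.

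Of the 19 member probe sets that passed the filter on dim signals, 18 were lower in LNCaP, among them all 15 of the 7 called subunits. The exception was an ITGB4 probe set. The share of all kept probe sets that were lower in LNCaP was not taken. The 15 include the main probe sets of the 7 called subunits, which were lower by their own call. In the order of the 6 group means, 7 of 9 subunits had their 3 DU145 groups above their 3 LNCaP groups. The share of all genes with this order was not taken, but 22% had every LNCaP array below every DU145 array. Of the 45 steps between neighbouring groups in the orders of the 9 subunits, 12 were larger than the residual SD of that subunit. For ITGA2, ITGA3, ITGA6 and ITGB5 the single such step was the one between the lines. For ITGAV the step between the lines, 0.02 log2, was not among the 12. The share of such steps over all genes was not taken either.

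**Figure D3:**
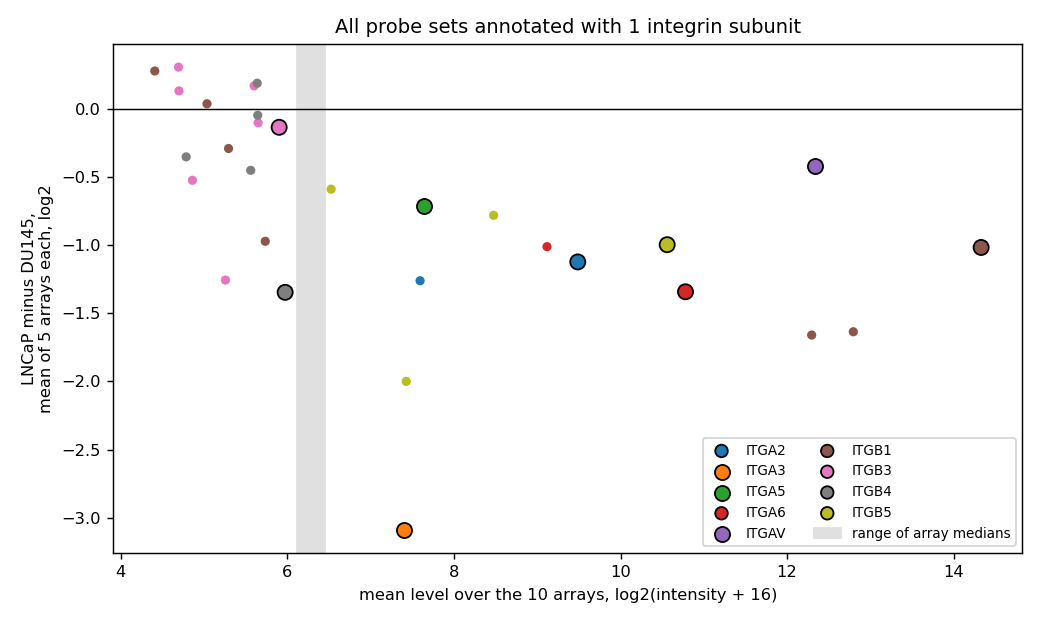
Line difference (LNCaP minus DU145, means of 5 arrays each, log2 scale) of all 30 probe sets annotated with 1 of the integrin subunits, against the mean level of that probe set over the 10 arrays. Large outlined points are the probe sets used for each gene, and the grey band is the range of array medians. Every probe set to the right of the band lies below 0. Those to the left lie on both sides of 0 and reach further below it, from -1.35 (the probe set used for ITGB4) to 0.30.

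Promoter windows are shown for the 3 called subunits of smallest p that RefSeq's table of GRCh38.p14 promoters holds, since these genes were lower in LNCaP together. Of the 10 subunits 7 matched the table by symbol. The most upstream start of each gene was taken, with a window of 300 bases, most of them upstream of it. RefSeq lists 2 starts for ITGB1, 2 for ITGA6 and 3 for ITGB5, and which of them these cells use was not tested. Capitals mark matches on either strand to the GC box GGGCGG bound by SP1-family factors, the AP-1 motif TGANTCA, the TATA box TATAAA and CCAAT. The windows are chr10:32958181-32958480 (minus strand) for ITGB1, chr2:172427086-172427385 (plus strand) for ITGA6 and chr3:124901369-124901668 (minus strand) for ITGB5, all written 5' to 3' along the gene.
ITGB1 promoter window: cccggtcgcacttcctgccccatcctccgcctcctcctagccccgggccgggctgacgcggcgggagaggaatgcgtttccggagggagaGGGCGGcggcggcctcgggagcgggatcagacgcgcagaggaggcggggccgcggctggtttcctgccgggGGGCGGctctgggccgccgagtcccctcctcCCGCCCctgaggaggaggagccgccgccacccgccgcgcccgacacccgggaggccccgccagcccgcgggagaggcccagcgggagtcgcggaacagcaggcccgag
ITGA6 promoter window: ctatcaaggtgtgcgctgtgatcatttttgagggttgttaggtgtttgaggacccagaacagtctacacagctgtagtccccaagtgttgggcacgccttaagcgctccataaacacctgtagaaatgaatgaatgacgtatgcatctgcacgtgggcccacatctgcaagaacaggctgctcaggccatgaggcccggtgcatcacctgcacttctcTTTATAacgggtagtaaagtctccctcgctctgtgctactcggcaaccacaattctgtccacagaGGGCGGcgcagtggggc
ITGB5 promoter window: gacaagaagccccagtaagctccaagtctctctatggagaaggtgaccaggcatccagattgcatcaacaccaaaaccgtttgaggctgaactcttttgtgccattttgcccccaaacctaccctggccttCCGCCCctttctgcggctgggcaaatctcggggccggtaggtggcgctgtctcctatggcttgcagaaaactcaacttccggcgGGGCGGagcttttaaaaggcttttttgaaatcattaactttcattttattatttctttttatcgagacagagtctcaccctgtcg

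The ITGB1 window held 3 GC boxes and 39 CpG pairs, the ITGA6 window 1 GC box and 1 TATA match, and the ITGB5 window 2 GC boxes. The TATA match of ITGA6 lies on the strand opposite to the gene. Over the 6 called subunits with a window, 5 had a GC box, against 44.5% of the 27305 promoters of that length. AP-1 was matched in 1 of 6 (ITGA5), against 7.72% of all, TATA in 1 of 6, against 12%, and CCAAT in 0 of 6, against 35.7%. No matches overlapped. These are matches of letters in a window and say nothing about which factor binds there.

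ITGB4, the hemidesmosome partner of ITGA6, had its LNCaP arrays at separate levels. It was at 6.66 with ribavirin, 4.47 and 6.50 in EOS and 4.46 and 4.41 in PGK in LNCaP. In DU145 it was at 6.96 with ribavirin, 5.81 and 6.53 in EOS and 7.06 and 6.86 in PGK. LNCaP PGK 1, PGK 2 and EOS 1 were near the floor of 4, whereas EOS 2 and the ribavirin array that its label ties to it lay within the DU145 range. Among the PGK controls the line difference was -2.53 ± 0.66 log2 (SE, 2 arrays each, limma adjusted p = 0.0187) with the pseudocount of 16, -4.07 with 1 and -1.31 with 64. Leaving out DU145 PGK 1, DU145 PGK 2, LNCaP PGK 1 or LNCaP PGK 2 ended that call (adjusted p = 0.101, 0.0825, 0.0557 and 0.0623). Averaged over the states it was -1.17 ± 0.44 (adjusted p = 0.0555), and without LNCaP EOS 2 it was -1.51 (adjusted p = 0.00649).

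The ITGB4 values rest on a dim probe set, above the array median on 6 of 10 arrays. Its 2 other kept probe sets differed between the lines by -0.05 and 0.19 log2, as means of 5 arrays each. The mean of all 3 probe sets gave -1.34 among the PGK controls (limma adjusted p = 0.12) and -0.405 over the states. The gene closest to the ITGB4 pattern was PSMB9, an immunoproteasome subunit induced by interferon, with a root mean square difference of 0.215 log2 over the 10 arrays after centring, where the median gene was at 1.13. PSMB9 was at 9.33 with ribavirin, 9.21 in EOS 2 and 7.06 to 7.40 on the other LNCaP arrays, against 8.96 to 10.15 in DU145. The next closest were UBE2L6, an enzyme of ISG15 conjugation, at 0.288, and ARAP3 at 0.338. For ITGA3 the closest genes were RASSF8-AS1 (0.323), SP140L (0.339) and CD99L2 (0.34), with a median of 1.64, and for ITGA6 they were PPP1R21 (0.0889), HELLS (0.0939) and FBXO11 (0.0996), with a median of 0.816. These distances are descriptions of 10 arrays that fall into 2 lines.

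ITGB3, an ITGAV partner known from platelets and endothelium, was dim throughout. Its 7 probe sets exceeded the array median in 7 of 70 readings, and 1 of them passed the filter. That probe set was at 5.38 with ribavirin, 6.25 and 4.70 in EOS and 6.24 and 6.58 in PGK in LNCaP. DU145 had 5.96 with ribavirin, 5.71 and 5.10 in EOS and 6.55 and 6.51 in PGK. The lines overlapped, with a difference of -0.21 ± 0.39 log2 (SE, limma adjusted p = 0.686), and -0.58 to 0.54 in the 5 matched pairs. ITGB6, an epithelial subunit whose receptor activates latent TGF-beta, had only the 4 shared probe sets. Their readings ran from 4.15 to 6.29 and exceeded the array median in 1 of 40 cases.

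Selection with the EOS reporter gave no called integrin subunit in either line, and no called gene at all. In LNCaP 0 of 9 subunits and 0% of 14313 genes passed against PGK (limma adjusted p = 0.999 for each subunit), with 596 genes and 0 subunits at an unadjusted p under 0.05. In DU145 0 of 9 and 0% passed (adjusted p = 1), with 226 genes and 0 subunits at an unadjusted p under 0.05. The brighter subunits had estimates near 0. In LNCaP EOS against PGK, ITGB1 was at -0.09 ± 0.15 log2, ITGAV at 0.16 ± 0.17, ITGB5 at 0.10 ± 0.20, ITGA6 at 0.16 ± 0.25 and ITGA5 at 0.06 ± 0.28 (SE). In DU145 the same subunits were at 0.00 ± 0.15, -0.06 ± 0.17, -0.15 ± 0.20, 0.22 ± 0.25 and -0.20 ± 0.28. ITGA3 was at -0.47 ± 0.48 in LNCaP and -0.38 ± 0.48 in DU145, and ITGA2 at -0.38 ± 0.55 and -0.10 ± 0.55. Each of these 14 estimates was smaller than its SE.

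The dim subunits had the widest estimates. ITGB3 in EOS cells was at -1.12 ± 0.58 log2 in DU145, where neither EOS array reached a PGK array, and at -0.94 ± 0.58 in LNCaP, where pair 1 differed by 0.01 and pair 2 by -1.89. Its mean over the lines was -1.03 ± 0.41 (SE, unadjusted p = 0.0356, limma adjusted p = 1, with 292 genes at an unadjusted p under 0.05). ITGB4 was at 1.06 ± 0.66 in LNCaP, with 0.02 in pair 1 and 2.09 in pair 2, and at -0.79 ± 0.66 in DU145, with -1.26 and -0.33. The difference of these effects between the lines was 1.85 log2 (unadjusted p = 0.0812, limma adjusted p = 1), and for the 9 subunits 0 such differences were called, as for 0% of all genes. In DU145, 5 of 9 subunits had both EOS arrays below both PGK arrays, as did 16% of all genes, and 0 had both above, against 13.2%. In LNCaP 1 of 9, ITGB4, had both EOS arrays above both PGK arrays, against 18% of all genes, and 0 had both below, against 10.6%.

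**Figure D4:**
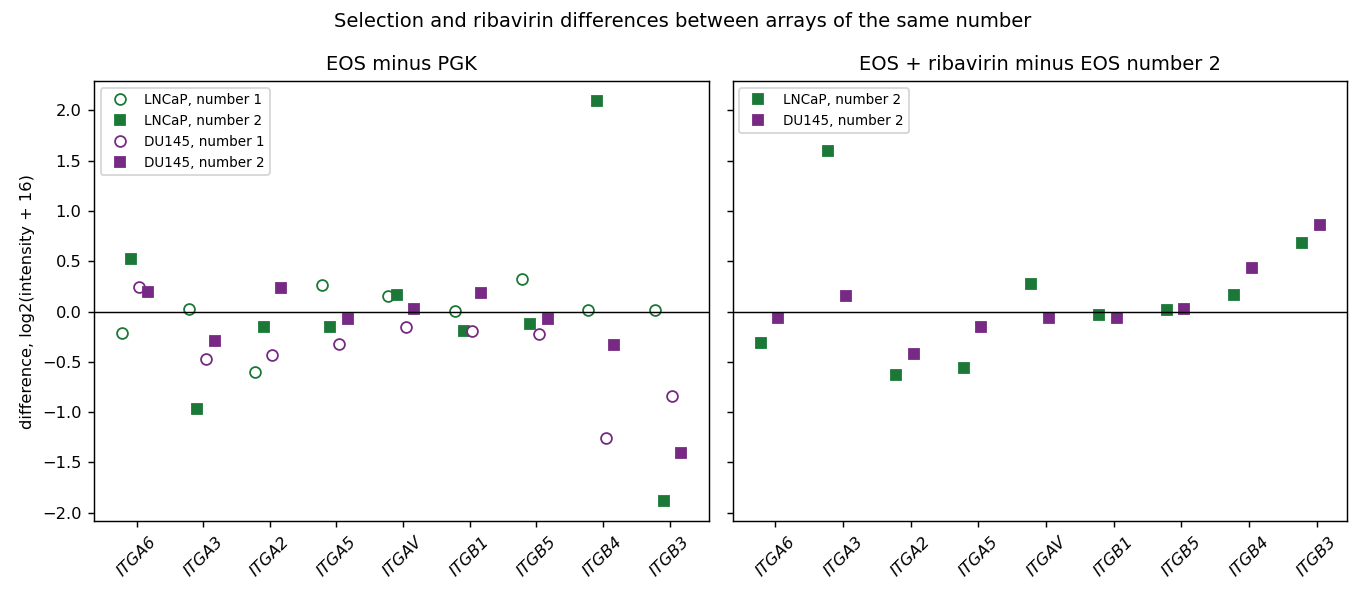
Differences between arrays of the same number for the 9 tested integrin subunits on the log2(intensity + 16) scale, EOS minus PGK on the left and EOS with ribavirin minus EOS number 2 on the right, with LNCaP in green and DU145 in purple. Open circles are number 1 and filled squares number 2. ITGB4 and ITGB3 have the widest EOS differences, from -1.89 to 2.09, and ITGA3 in LNCaP has the largest with ribavirin, at 1.60.

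Ribavirin, a guanosine analogue that inhibits IMP dehydrogenase, was tested with 1 array per line, assumed to vary like the other groups. Against the EOS arrays 0 of 9 subunits and 0% of all genes passed in LNCaP (limma adjusted p = 0.999 for each subunit), with 289 genes at an unadjusted p under 0.05. In DU145 0 of 9 and 0% passed (adjusted p = 1), with 250 genes at an unadjusted p under 0.05, and the mean of the lines called 0 as well, with 253. The mean effects were 0.98 ± 0.57 log2 for ITGB4, 0.48 ± 0.42 for ITGA3, -0.44 ± 0.25 for ITGA5, 0.23 ± 0.51 for ITGB3 and 0.21 ± 0.15 for ITGAV (SE). The other 4 lay between -0.05 and 0.04. In LNCaP the ribavirin array lay above both EOS arrays for 3 of 9 subunits and below both for 2, against 27.6% and 31.1% of all genes. In DU145 it lay above for 4 of 9 and below for 1, against 36.6% and 27.2%.

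The ribavirin and EOS comparisons share the EOS arrays. Set against EOS number 2 alone, the array it was tied to, ITGB4 differed by 0.17 in LNCaP and 0.43 in DU145, and ITGA3 by 1.60 and 0.16. The LNCaP value of ITGA3 rests on EOS 2, its lowest reading at 4.74. ITGA5 was at -0.56 in LNCaP, where its level of 6.71 was the lowest of the 10 arrays, and at -0.15 in DU145. ITGAV was at 0.27 in LNCaP and -0.06 in DU145. ITGB1 and ITGB5 differed by -0.06 to 0.02 in both lines.

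Of the 16 other integrin subunits listed, 9 were tested, and 7 did not pass the filter on dim signals. LNCaP had more ITGAE, the alpha chain of an E-cadherin receptor, with a mean of 12.96 in LNCaP and 12.10 in DU145 (0.88 ± 0.17 log2 SE, limma adjusted p = 0.00232). It had less ITGA1, a collagen-binding alpha chain, at 5.10 in LNCaP and 7.01 in DU145 (-1.86 ± 0.36, adjusted p = 0.00297), and less ITGB2, the leukocyte beta chain, at 5.002 in LNCaP and 6.52 in DU145 (-1.71 ± 0.49, adjusted p = 0.0199). ITGA1 and ITGB2 are near or below the array median in LNCaP. The median of these 9 was -0.42 log2.

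Among 31 tested integrin ligands, 2 were called higher and 19 lower in LNCaP at an adjusted p under 0.05, with a median of -1.24 log2, against 23.5% of all genes higher, 24.9% lower and a median of -0.04. FN1, fibronectin, was higher with 5.40 ± 0.28 log2 (SE, limma adjusted p = 1.67e-06), while ITGA5, the alpha chain of its receptor, was lower in LNCaP. NPNT, nephronectin, was higher by 2.37 ± 0.60. EDIL3, an RGD-containing ligand, was lower with -8.03 ± 0.29, the basement membrane collagen COL4A1 with -6.16 ± 0.27 and the matricellular CCN1 with -5.02 ± 0.22. EDIL3 and COL4A1 averaged 4.90 and 5.08 in LNCaP, below the array medians, so the floor of the scale limits the size of their differences, as it does for NPNT at 4.53 in DU145. No ligand passed with EOS or ribavirin, and of those named next NID1 averaged 5.75 in DU145, below the array medians. FN1 was at -1 ± 0.419 and the basement membrane linker NID1 at -1.77 ± 0.57 in DU145 EOS cells, and LAMA5 at 0.99 ± 0.37 and NPNT at 2.31 ± 0.90 in LNCaP EOS cells (unadjusted p = 0.0424, 0.0136, 0.0265 and 0.0317, limma adjusted p = 1, 1, 0.999 and 0.999).

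Of 30 tested adaptors and kinases that bind or act at integrin tails, 5 were called higher and 11 lower in LNCaP, with a median of -0.24. That is near the 48.4% of all genes called in either direction. FERMT2, the kindlin that activates integrins in most adherent cells, was lower with a difference of -2.70 ± 0.15 log2 (SE, limma adjusted p = 2.86e-06). TNS3, a tensin, was at -6.79 ± 0.70 and PTK2, focal adhesion kinase, at -0.99 ± 0.11. TNS3 averaged 5.33 in LNCaP, below the array medians, and PTK2B 5.14 in DU145. PTK2B, the related kinase PYK2, was higher by 2.72 ± 0.28, TNS1 by 1.58 ± 0.39 and PARVB by 0.59 ± 0.16. With EOS in LNCaP ILK, the pseudokinase of focal adhesions, was at 0.72 ± 0.29 and the docking protein NEDD9 at 1.33 ± 0.56, neither of which passed (limma adjusted p = 0.999). ILK was at -0.80 ± 0.25 over both lines with ribavirin (adjusted p = 1).

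The 3 tested genes of the hemidesmosome and basal list included the plakins that link ITGB4 to keratin. DST was lower in LNCaP with -3.53 ± 0.19 log2 (SE, limma adjusted p = 2.24e-06) and PLEC with -2.92 ± 0.45 (adjusted p = 0.000832). PLEC averaged 5.41 in LNCaP, below the array medians. Of 17 surface partners of integrins 3 were called higher and 4 lower in LNCaP, with a median of 0.02, near the shares of all genes (23.5% higher and 24.9% lower). The tetraspanins CD9 and CD81 and their partner PTGFRN were higher, by 1.36 ± 0.14, 0.52 ± 0.10 and 1.06 ± 0.14. CAV1, caveolin, was lower with -8.91 ± 0.27, PLAUR, the urokinase receptor, with -3.59 ± 0.22 and the tetraspanin CD63 with -0.38 ± 0.11. CAV1 averaged 4.65 in LNCaP, below the array medians. CD82, a tetraspanin, was at 0.84 ± 0.36 in LNCaP EOS cells (adjusted p = 0.999).

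Fibroblast markers were above the array median for 1 to 3 of 7 genes on every array. Their summed intensity was 337.1 to 843.8 in LNCaP. In DU145 it was 468.5 to 780.2 in PGK, 447.3 to 2855 in EOS and 3199 with ribavirin. Leukocyte markers were above it for 0 to 2 of 5 and endothelial markers for 0 to 2 of 5. Averaged over the 3 states, POSTN (-4.02 ± 0.74 log2) and COL3A1 (-2.52 ± 0.54) were the fibroblast markers called lower in LNCaP (SE, limma adjusted p = 0.00217 and 0.00468). VWF (1.75 ± 0.41, adjusted p = 0.00705) was the endothelial marker called higher. Among the PGK controls alone 0 of 4 tested fibroblast markers and 0 of 2 endothelial ones were called, against 33.1% of all genes. The fibroblast differences there ran from -1.12 to -0.161. Epithelial markers were above the median for 5 of 5 in LNCaP and 3 to 5 of 5 in DU145, with a summed intensity of 50570 to 56740 in LNCaP and 12160 to 22670 in DU145. Averaged over the 3 states all 5 were called higher in LNCaP, against 23.5% of all genes. CDH1, E-cadherin, was at 8.12 ± 0.20, EPCAM at 5.02 ± 0.17 and the keratin KRT19 at 2.14 ± 0.33. Among the PGK controls alone 2 of 5 were called higher, against 15.2% of all genes, with a median of 0.641 and a lowest of 0.0631. In DU145 EOS against PGK all 5 estimates were below 0, from -1.45 to -0.316. All 8 tested luminal markers were called higher, among them KLK2 at 9.13 ± 0.28 and HOXB13 at 6.79 ± 0.21. With EOS 0 of these markers passed. EPCAM was at -0.96 ± 0.25, CDH1 at -0.89 ± 0.30 and HOXB13 at -0.96 ± 0.32 in DU145 (adjusted p = 1), TMPRSS2 at 0.94 ± 0.38 in LNCaP (adjusted p = 0.999), and KLK3 at -0.70 ± 0.22 with ribavirin over both lines (adjusted p = 1). HOXB13 averaged 5.01 and KLK3 5.47 in DU145, below the array medians. The part of the marker signals in the integrin values was not tested.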

How the data were processed

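Total RNA of 10 cell line samples was hybridised to 1 Affymetrix array each. The deposited values are probe set intensities on a linear scale, and MAS5 and affy are listed, with no version or role, per the submitters' processing notes. Background correction and scaling target are not given in the sources used here. Of 54675 probe sets 62 were controls, and 41091 of the others had 1 gene symbol, 1801 several and 11721 none. Scaling brought the 2% trimmed mean of every array to 500, and log2(intensity + 16) was taken. Probe sets above the array median in at least 2 of 10 arrays were kept (33451), and the brightest per gene gave 14313 genes. limma 3.58.1 in R 4.3.3 fitted 6 group means over all arrays (4 residual degrees of freedom, intensity trend, Benjamini-Hochberg at 0.05). The number of arrays limits the precision. The fit was checked on simulated data. The deviations of EOS and PGK arrays of the same number correlated across genes in LNCaP (r = 0.484) and only weakly in DU145 (r = 0.123). The main fit did not pair these arrays. All 10 members are named. From each other list the text names, between the lines, up to 3 called genes of smallest p per direction and, for EOS and ribavirin, up to 2 at an unadjusted p under 0.05. Members and lists were chosen with earlier results of these data known. Alternatives were other pseudocounts, quantile normalization, the deposited scale, no filter, averaged probe sets and no trend. A further one was a block by array number within each line, with 2 residual degrees of freedom. Its line differences are those at number 1, to which the ribavirin arrays were carried by the fitted step between numbers. Each EOS or PGK array was also left out in turn.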

Additional observations from a re-analysis of the deposited data

How the results depend on the processing

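ITGA3, ITGA6, ITGB1 and ITGB5 kept their line call over the 3 states in all 15 alternatives. The count of called subunits in that comparison was 5 to 8. Among the PGK controls, where it was 6, it was 0 on the deposited scale, where arrays of 1 group lie on different scales, and with 1 array left out it was 3 to 6, with 3 without DU145 PGK 2. The count of all genes called there moved too, to 58 of 14313 on the deposited scale and 2497 to 5061 with 1 array left out, against 4733. On the deposited scale the median of all genes there was -0.18. In the EOS and ribavirin comparisons 0 subunits were called in any of 109 settings. The replicate block gives the line difference at array number 1. There ITGA5 and ITGAV lost their line call over the 3 states (limma adjusted p = 0.126 and 0.0569). The count was 5, and no other subunit lost a line call over the 3 states. Without the intensity trend ITGA2 and ITGAV lost it (adjusted p = 0.0642 and 0.0731). ITGB4 among the PGK controls lost its call with any DU145 or LNCaP PGK array left out (adjusted p = 0.0557 to 0.101). ITGB3 between the lines ranged from -0.47 to 0.048 with 1 array left out and changed sign without LNCaP EOS 2. For EOS against PGK in LNCaP, ITGA5 was -0.0423 with quantile normalization and ITGB5 -0.0404 with averaged probe sets, and with 1 array left out ITGA2 ranged from -1.20 to 0.44, ITGA3 from -1.23 to 0.29, ITGA5 from -0.14 to 0.25, ITGA6 from -0.16 to 0.47, ITGB1 from -0.215 to 0.0294 and ITGB5 from -0.0569 to 0.254. In DU145 ITGA2 ranged from -0.40 to 0.20, ITGAV from -0.168 to 0.0424 and ITGB1 from -0.14 to 0.14. The cause of these changes was not tested. Low signal limits ITGB3, ITGB4, ITGB6 and, in LNCaP, ITGA3.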
